A study of Mus musculus with 24 samples.

Results

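The nuclear genes for respiratory complexes III, IV and V and for cytochrome c are described here in microglia, the macrophages that live in the brain tissue. Members were taken by symbol: every protein-coding gene whose name starts with Uqcr, with Cox followed by 4, 5, 6, 7 or 8, or with Atp5, together with Cyc1 and Cycs. The rule found 45 of the 22064 genes in the table. Of these, 9 belong to complex III, 18 to complex IV and 17 to complex V, and Cycs stands apart as the carrier between complexes III and IV. No pseudogene was taken, and the 14 left out have no entry in the table, so their reads may be counted in members. By name, Atp5k has 4 of them, Atp5l 3, Uqcrh 2, and Cox5b, Cox7c, Atp5c1 and Atp5pb 1 each. Such sharing of reads was not tested. The microglia were sorted from the brains of wild-type mice on day 28, with 6 libraries in each of 4 groups. Sham mice had a control operation and were given PBS, a salt solution. BCAS mice had bilateral carotid artery stenosis, which lowers blood flow to the forebrain, and were also given PBS. The other 2 groups had BCAS and received exosomes, small vesicles that cells release, labelled ND-Exos or WD-Exos. By the series title the exosomes were made by foam cells, macrophages loaded with lipid; the labels spell out neither ND nor WD. Exosomes were given at 100 µg into the tail vein, once every 3 days up to day 28. There was no group with the sham operation and exosomes.

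Complex III passes electrons from ubiquinol to cytochrome c, complex IV passes them from cytochrome c to oxygen, and both pump protons out of the mitochondrial matrix. Complex V, the ATP synthase, lets the protons back in and makes ATP. Most subunits are encoded in the nucleus, and a few at the catalytic and membrane core are encoded in mitochondrial DNA, which is not analysed here. Microglia use both glycolysis and respiration, and the balance between them is known to shift when the cells are activated.

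Library totals ranged from 24277722 to 28892423 estimated counts, over 8515 to 10794 detected genes. Levels are given in CPM, the usual count scaled to library size, corrected for library composition by TMM factors, as mean ± SD with n = 6. The 10 microglial marker genes summed to 45185 ± 3725 CPM in Sham, 52659 ± 5906 in BCAS, 47979 ± 8364 in ND-Exos and 52959 ± 6155 in WD-Exos, and the groups overlapped. All 10 had a higher level than Sham in BCAS and in WD-Exos, with a median log2 fold change of 0.36 in each. The part of these marker levels in the differences below was not tested. Markers of other cells were lower but uneven. Border macrophage markers summed to 484 ± 531 CPM in Sham and 73.6 ± 43.1 in WD-Exos, and Sham replicates 1 and 3 carried most of the Sham sum. Mural cell markers reached 987 CPM in Sham replicate 2 and at most 0.149 CPM in any BCAS library. Oligodendrocyte markers reached 7569 CPM in Sham replicate 4, 4279 CPM in ND-Exos replicate 3 and 5208 CPM in WD-Exos replicate 6. Endothelial markers reached 643 CPM in Sham replicate 3 and at most 78.4 CPM in any library outside Sham. Neuron markers reached 327 CPM in Sham replicate 1. Sham replicate 3 also had the highest sum of all libraries for complexes III, IV and V. The part of these other cells in the differences below was not tested. Nothing in the labels ties the samples to separate mice. The p-values therefore rest on the spread among the 6 samples of a group, some of which may be technical. In such bulk samples, fewer cells with a transcript and less of it per cell cannot be told apart.

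The promoters of 34 of the 45 genes were found in the RefSeq promoter table (GRCm38.p6, 250 bases before and 50 after each start site), and 5 are printed, those of members on which the results below turn. Cox6b1 and Uqcrh came nearest to the threshold, Cox5a and Cox7c had BCAS libraries wholly below Sham, and Atp5b carried part of the gap in complex V. Other such members, Atp5mpl and Cox6a2, are named only. The promoters were searched for the motifs of NRF1 (GCGCA and GCGC with any 1 base between them), GABPA (CCGGAAG) and YY1 (AAGATGGCG), factors known to act at genes of the respiratory chain, read on both strands. Each line gives 120 bases before and 20 after the start site, 5′ to 3′ on the gene's own strand, with motif matches in capitals. In that order of printing, the windows are chr7:30626095-30626234, chr4:116075051-116075190, chr9:57521112-57521251, chr13:86046776-86046915 and chr10:128083187-128083326, with Cox5a and Atp5b on the plus strand and the others on the minus strand.
Cox6b1: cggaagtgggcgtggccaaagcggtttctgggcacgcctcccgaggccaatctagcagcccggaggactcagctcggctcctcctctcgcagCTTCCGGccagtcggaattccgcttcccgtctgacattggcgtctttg
Uqcrh: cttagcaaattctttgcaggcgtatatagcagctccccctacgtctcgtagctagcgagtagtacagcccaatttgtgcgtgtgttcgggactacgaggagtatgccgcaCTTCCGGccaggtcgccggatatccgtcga
Cox5a: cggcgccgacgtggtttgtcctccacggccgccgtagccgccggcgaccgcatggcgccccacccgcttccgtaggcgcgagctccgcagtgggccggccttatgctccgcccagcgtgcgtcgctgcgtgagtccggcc
Cox7c: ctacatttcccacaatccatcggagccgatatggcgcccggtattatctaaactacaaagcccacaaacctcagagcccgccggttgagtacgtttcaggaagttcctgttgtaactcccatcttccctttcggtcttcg
Atp5b: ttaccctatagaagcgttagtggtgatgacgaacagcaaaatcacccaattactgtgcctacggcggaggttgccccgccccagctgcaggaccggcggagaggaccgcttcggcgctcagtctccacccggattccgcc
Cox6b1 and Uqcrh each show the GABPA motif in its reverse complement, starting 28 and 10 bases before the start site. Cox5a, Cox7c and Atp5b show none of the 3 motifs, in these lines or in the rest of their promoter windows.

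Of the 37 member promoters, 11 (29.7%) held the GABPA motif, against 11.6% of the 21263 promoters of protein-coding genes and 18.9% of the 10699 promoters of tested protein-coding genes. NRF1 matches stood in 8 member promoters (21.6%), against 6.38% and 10.7%. YY1 matches stood in 2 (5.41%), against 1.83% and 3.26%. The NRF1 matches were unevenly placed among the complexes, with 6 of 18 complex V promoters, 1 of 13 complex IV promoters and 1 of 5 complex III promoters. A match here describes letters in a window, not a bound site.

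Of the 45 members, 42 had values and 3 complex IV isoforms (Cox7b2, Cox8b and Cox8c) were blank in every library. The filter on low counts left 40: 9 in complex III, 13 in complex IV, 17 in complex V and Cycs. It removed Cox4i2 and Cox7a1. Levels are compared between genes only as CPM per kb of transcript. Per length, Cox4i1, the regulatory subunit IV of cytochrome c oxidase, had the highest level of all members at 839 CPM per kb, followed in complex IV by Cox6b1 at 717. In complex III the core protein Uqcrc1 stood at 503 CPM per kb and the hinge protein Uqcrh, which docks cytochrome c, at 421. In complex V the catalytic beta subunit Atp5b stood at 464 CPM per kb and the central stalk subunit Atp5c1 at 338. Cycs stood at 47.2 CPM per kb. With the longest coding transcript in place of the median length, Uqcrh led complex III at 366 CPM per kb. Uqcrc1, with a median length of 533 and a longest of 1653 bases, then stood at 162 CPM per kb, rank 5 of 9. Cox8a and Atp5e took the place of Cox6b1 and Atp5c1, and Atp5c1 stood at 195 CPM per kb, rank 7 of 17.

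**Figure D1:**
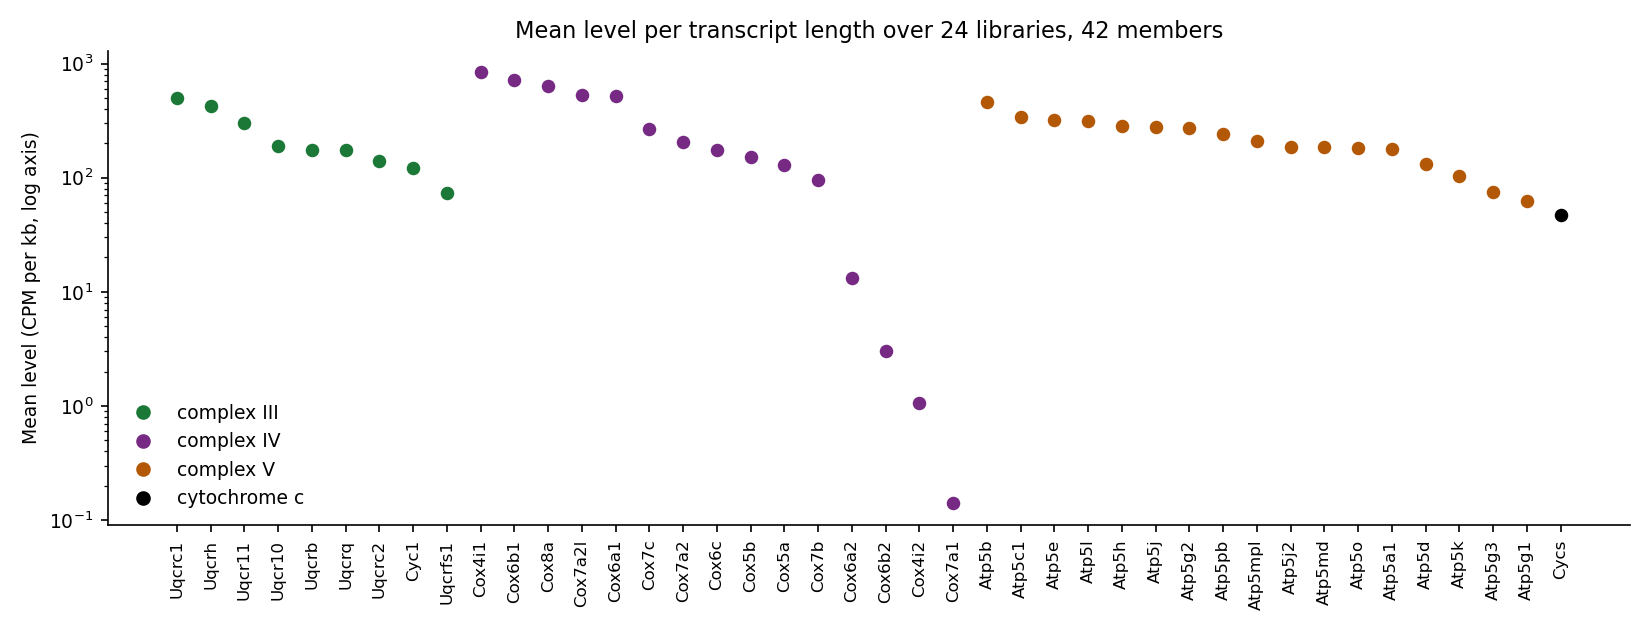
Mean level of the 42 members with values over all 24 libraries, in CPM per kb of transcript on a log axis, ordered by level within each complex and coloured by complex. Most members lie between 47.2 (Cycs) and 839 CPM per kb (Cox4i1); 4 isoforms of complex IV (Cox6a2, Cox6b2, Cox4i2 and Cox7a1) lie far below.

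Where complex IV has isoforms, transcripts of 1 of them predominated. Cox6a2, the heart and muscle form of subunit VIa, stood at 13.2 CPM per kb, against 522 for Cox6a1. Cox6b2, the testis form, stood at 3.05 CPM per kb against 717 for Cox6b1, and had no count in 13 libraries. Cox4i2 was counted in 3 of 24 libraries, at 11.96 CPM in Sham replicate 2, 3.39 in Sham replicate 4 and 3.31 in WD-Exos replicate 3. In the brain Cox4i2 is known from vascular mural cells, whose markers summed to 987, 186 and 10.4 CPM in those libraries; libraries with no Cox4i2 count had mural sums of up to 19.9 CPM (WD-Exos replicate 1). Bcl2l1, at 112 CPM, overlaps Cox4i2 in the annotation, so reads may be shared. The part of mural cells and of shared reads in the Cox4i2 values was not tested. Cox7a1, the muscle form of subunit VIIa, was counted in 1 library at 1.47 CPM. The c subunit of the ATP synthase, the ring that turns with the protons, comes from 3 genes that encode the same mature protein. Per length, Atp5g2 gave 67.4 ± 5.4% of the 3 in Sham, 65.9 ± 4.9% in BCAS, 65.5 ± 8.4% in ND-Exos and 66.4 ± 5.4% in WD-Exos. Atp5g1 gave 12.8 ± 1.6%, 17.3 ± 4.2%, 17.5 ± 3.9% and 14.4 ± 2.6% in the same order, and Atp5g3 the rest. These shares overlapped between the groups.

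Summed over each complex, subunit transcripts stood highest in Sham. Complex III summed to between 1229.9 and 1532 CPM in Sham (median 1287), 1107 and 1383 in BCAS (1226), 927 and 1414 in ND-Exos (1261), and 985 and 1124 in WD-Exos (1091). All 6 WD-Exos libraries lay below the lowest Sham library, and the means were 1073 ± 54 and 1322 ± 114 CPM, a difference of -18.8%. BCAS and ND-Exos overlapped with Sham. Complex IV summed to 3312 ± 221 CPM in Sham, 2811 ± 286 in BCAS, 2919.85 ± 361 in ND-Exos and 2460.35 ± 471 in WD-Exos. With WD-Exos, 5 libraries lay between 1842 and 2526 CPM, all below the lowest Sham library (2992), and WD-Exos replicate 6 stood apart at 3281. Complex V summed to 3970.05 ± 194 CPM in Sham (3709 to 4281), 3460.04 ± 129.5 in BCAS (3222 to 3602), 3389 ± 169 in ND-Exos (3108 to 3539) and 3475 ± 376 in WD-Exos (2829 to 3893). All BCAS and all ND-Exos libraries lay below the lowest Sham library. That gap rested in part on Atp5b: without it, complex V summed to 2957 ± 202 CPM in Sham and 2673 ± 200.1 in BCAS. In ND-Exos the sum without Atp5b was 2621 ± 151 CPM, and in WD-Exos 2485 ± 299, the lowest group mean. Below the lowest Sham library then lay 4 of 6 BCAS, 5 of 6 ND-Exos and 5 of 6 WD-Exos libraries. These sums are descriptions with no test.

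**Figure D2:**
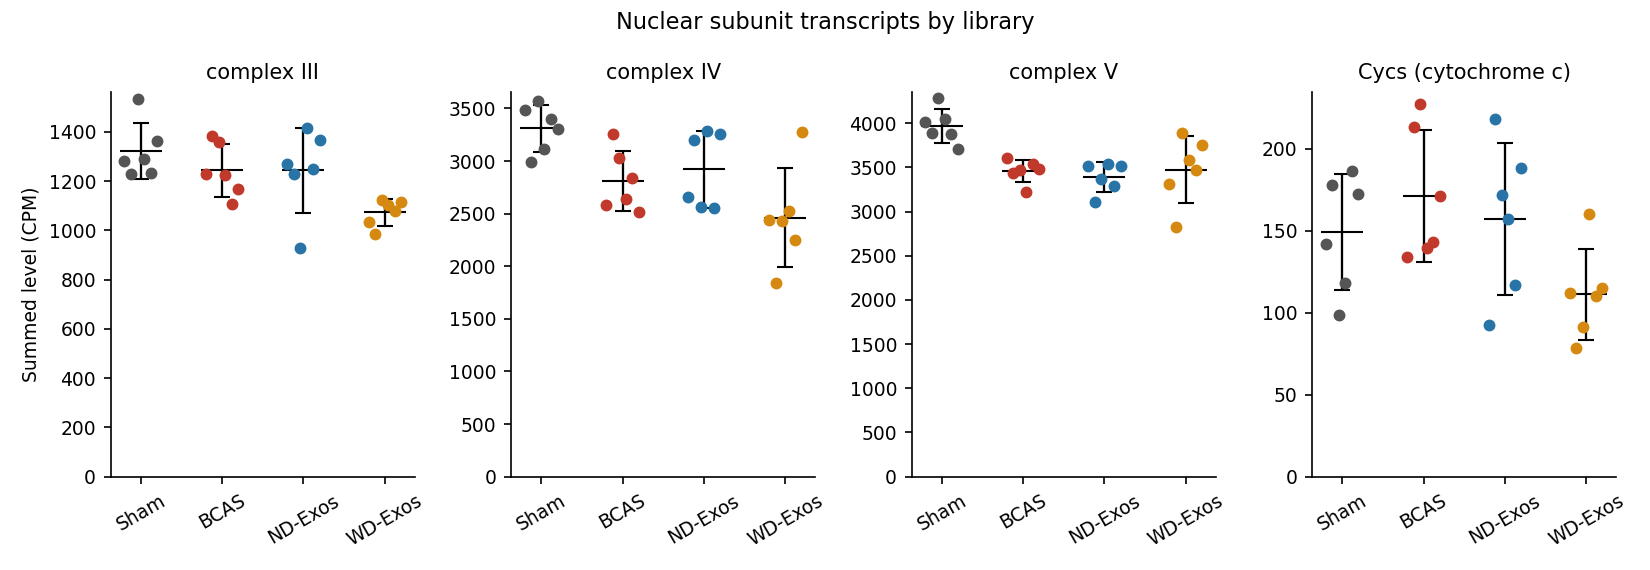
Summed level in CPM of the nuclear subunit genes of complexes III, IV and V and of Cycs, by library; points are libraries, lines the mean and bars 1 SD (n = 6), on axes that start at 0. The WD-Exos libraries lie below all Sham libraries in complex III (at most 1124 against at least 1229.9 CPM), and the BCAS and ND-Exos libraries do so in complex V.

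The 42 members with values, Cycs included, took 0.866 ± 0.045% of all counts in Sham, 0.749 ± 0.052% in BCAS, 0.798 ± 0.028% in ND-Exos and 0.711 ± 0.061% in WD-Exos. Of the summed CPM of the 3 complexes without Cycs, complex IV made up 38.5 ± 1.4% in Sham, 37.3 ± 2.1% in BCAS, 38.6 ± 2.6% in ND-Exos and 34.9 ± 3.0% in WD-Exos. Complex V made up 49.7 ± 2.1% in WD-Exos and 46.2 ± 1.4% in Sham. Both shares overlapped between the groups. For comparison, 98 genes were taken whose symbols start with Rpl or Rps and a digit. This rule takes in ribosomal protein genes but can also match other genes. Many of their transcripts are short and abundant like those of the small respiratory subunits. Together they took 5.68 ± 0.50% of counts in Sham, 4.16 ± 0.74% in BCAS, 4.26 ± 0.45% in ND-Exos and 3.95 ± 0.60% in WD-Exos. Subunits of complex I, which feeds the chain, summed to 3595 ± 259 CPM in Sham, 3284 ± 266 in BCAS, 3443 ± 298 in ND-Exos and 3049.96 ± 417 in WD-Exos. The part of a shift shared by such transcripts in the results was not tested.

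No member passed an adjusted p of 0.05 in any of the 6 comparisons of groups or in a test of the 4 groups at once (edgeR quasi-likelihood F test, Benjamini-Hochberg adjustment over the 10219 genes tested). Few genes of any kind did. The share of all genes called was 0% for BCAS against Sham, 0.0196% for ND-Exos against BCAS, 0% for WD-Exos against BCAS, 0.0196% for WD-Exos against ND-Exos, 0.108% for ND-Exos against Sham, 0% for WD-Exos against Sham and 0.0294% over the 4 groups. The count of members at an unadjusted p under 0.05 is set against the same share of all genes tested and of the 1423 with a mean of at least 100 CPM, a level most members reach. It was 7 of 40 for BCAS against Sham (6.04% of all genes, 16.7% at that level), 0 for ND-Exos against BCAS (4.47%, 7.45%), 2 for WD-Exos against BCAS (3.71%, 5.76%) and 4 for WD-Exos against ND-Exos (5.33%, 15%). It was 8 for ND-Exos against Sham (6.66%, 20.4%), 14 for WD-Exos against Sham (5.39%, 18.8%) and 12 over the 4 groups (6.33%, 20.4%). Set against genes of that level, the members' share in BCAS against Sham, ND-Exos against Sham and WD-Exos against BCAS lay near the background. Except for Atp5b in WD-Exos against ND-Exos, each of these members had the lower level in the first-named group. With DESeq2, 2 members passed for WD-Exos against Sham (1.68% of all genes) and 2 over the 4 groups (1.6% of all genes), and with limma voom 1 passed for WD-Exos against Sham (0.636% of all genes). The median standard error (SE) of a member's log2 fold change in BCAS against Sham was 0.22. It was 0.24 over genes with a mean of at least 100 CPM and 1.095 over all genes tested. Of the 40 members, 38 were counted in every library. Comparisons that share Sham or BCAS libraries are not independent of each other.

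Read by direction alone, the members lay on the lower side in most comparisons. In BCAS against Sham, 32 of 40 had a lower level in BCAS (50.1% of all genes tested, and 48.1% of the 1423 genes with a mean of at least 100 CPM), and the median log2 fold change was -0.23. In WD-Exos against Sham, 39 of 40 were lower (49.5% and 53.4%), with a median of -0.38. In ND-Exos against Sham, 30 of 40 were lower (50% and 55.4%; median -0.26). With WD-Exos against ND-Exos, 30 of 40 were lower (50.8% and 50.5%; median -0.24), and against BCAS 31 were lower (51.1% and 58.9%; median -0.19). With ND-Exos against BCAS, 19 of 40 were lower (49.6% and 58.7%; median 0.01). The members share libraries and are not independent of each other, so these counts are not a test.

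**Figure D3:**
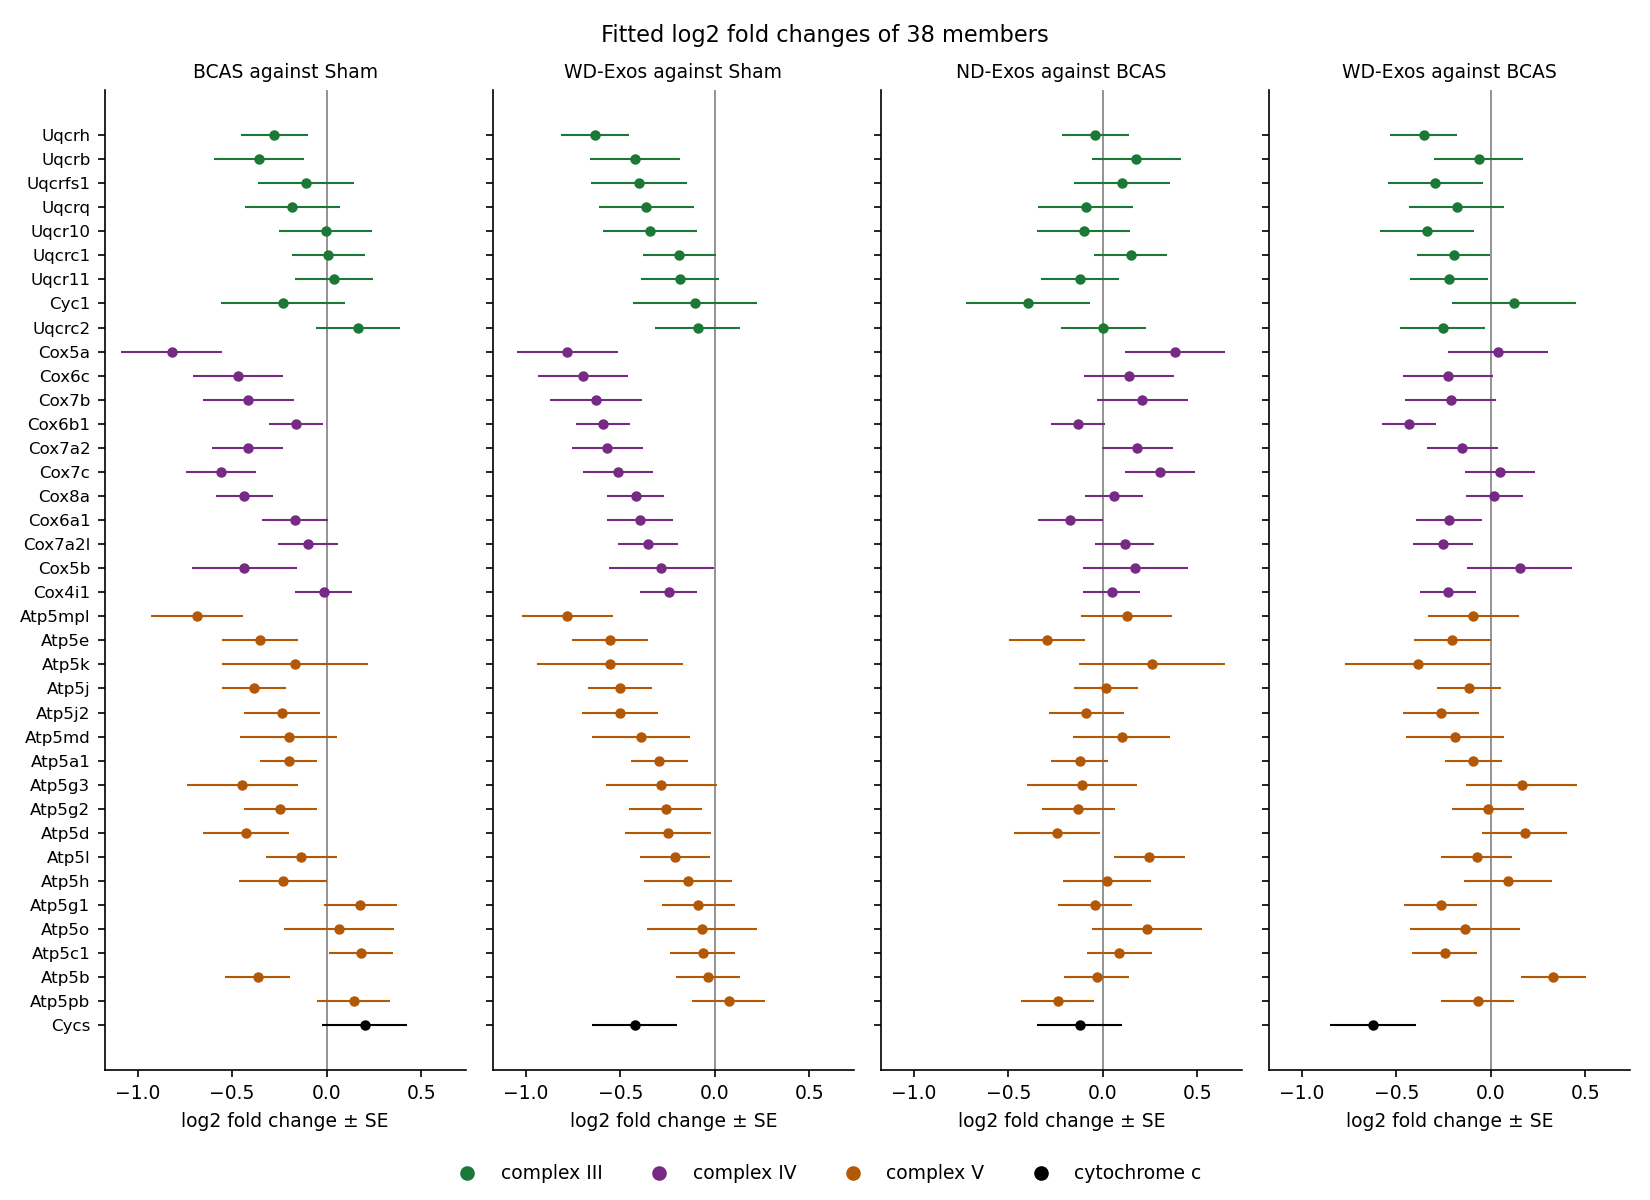
Fitted log2 fold change with its SE for 38 members in 4 comparisons, grouped by complex and ordered within it by the value in WD-Exos against Sham; Cox6a2 and Cox6b2, whose SE is above 1, are left off. In BCAS against Sham and in WD-Exos against Sham the complex IV points all lie below 0, while in ND-Exos against BCAS the points lie on both sides.

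In complex III the median difference from Sham was small in BCAS and ND-Exos and larger in WD-Exos, and single libraries moved each of these values. For BCAS against Sham, 6 of 9 members were lower and the median log2 fold change was -0.11, which became -0.22 without BCAS replicate 2 and -0.03 with a term for genes detected per library. For WD-Exos against Sham, 9 of 9 were lower with a median of -0.34, which became -0.20 without WD-Exos replicate 3. WD-Exos against ND-Exos gave 8 of 9 lower and a median of -0.24 (-0.15 without ND-Exos replicate 6). WD-Exos against BCAS gave 8 of 9 lower and a median of -0.22 (-0.14 without BCAS replicate 2). ND-Exos against Sham gave 7 of 9 lower and a median of -0.11, with a range of -0.24 to -0.05 when single libraries were left out, and ND-Exos against BCAS gave 5 of 9 lower and a median of -0.04. That last value ran from -0.12 (without ND-Exos replicate 4) to 0.03 when single libraries were left out, and lay above 0 without BCAS replicate 2, BCAS replicate 5 or ND-Exos replicate 3.

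Uqcrh had the smallest p of complex III. Uqcrh overlaps the pseudogene Gm12854 in the annotation, so reads may be shared. Its level ran from 179 to 291 CPM in Sham (median 246), 170 to 238 in BCAS (202), 150.4 to 268 in ND-Exos (189.6) and 108 to 198 in WD-Exos (158). The WD-Exos libraries lay toward the low end but overlapped with Sham. For WD-Exos against Sham its log2 fold change was -0.63 (SE 0.18, edgeR adjusted p = 0.223), and DESeq2 gave -0.61 with an adjusted p of 0.0243. Against BCAS it was -0.36 (SE 0.18, edgeR adjusted p = 0.9999), and -0.22 without BCAS replicate 2 and WD-Exos replicate 2. The small subunit Uqcrb, which binds near the quinone site, stood at 111 ± 10.1 CPM in Sham, 86.5 ± 34.5 in BCAS, 97.8 ± 19.7 in ND-Exos and 82.8 ± 15.5 in WD-Exos. Its BCAS libraries spread from 47.7 to 129 CPM and so took in the whole Sham range of 99.8 to 120.4.

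Uqcrc1 and Uqcrc2, the core proteins of complex III, stood lower in WD-Exos than in ND-Exos by more than against Sham, though within overlapping groups. Uqcrc1 ran from 177 to 380 CPM in Sham and from 190.2 to 316 in WD-Exos, with a log2 fold change of -0.19 (SE 0.19) against Sham and -0.34 (SE 0.19, edgeR adjusted p = 0.9999) against ND-Exos. Uqcrc2 gave -0.09 (SE 0.22) and -0.26 (SE 0.22). Cytochrome c1 (Cyc1), which hands electrons to cytochrome c, ran from 40.7 to 129 CPM in Sham (median 115), 57.2 to 127 in BCAS (81.9), 33.4 to 107.5 in ND-Exos (67.0) and 59.9 to 158 in WD-Exos (89.1). Its largest difference was between ND-Exos and Sham, with a log2 fold change of -0.62 (SE 0.33, edgeR adjusted p = 0.866), and the groups overlapped. The Rieske iron-sulfur protein Uqcrfs1, the other redox subunit, gave -0.40 (SE 0.25) for WD-Exos against Sham. Uqcr10, a small subunit, ran from 65.9 to 108 CPM in Sham and 37.8 to 98.9 in WD-Exos, and gave -0.34 (SE 0.25) for WD-Exos both against Sham and against BCAS. The value against BCAS was -0.18 without WD-Exos replicate 3 and -0.13 with a term for genes detected per library. The other small subunits, Uqcrq and Uqcr11, gave -0.36 (SE 0.25) and -0.18 (SE 0.21) for WD-Exos against Sham.

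Complex IV had lower levels than Sham in all 13 tested members, both in BCAS (median log2 fold change -0.43) and in WD-Exos (-0.57). Of the BCAS values, those of Cox4i1 (-0.02), Cox7a2l (-0.10), Cox6a1 (-0.17), Cox6a2 (-1.13) and Cox6b2 (-0.96) were smaller in size than their SE. With ND-Exos, 11 of 13 were lower than in Sham, with a median of -0.29 (-0.19 without Sham replicates 1, 2 and 3, among them the libraries with the highest border macrophage and mural marker sums). Against BCAS, ND-Exos gave 4 of 13 lower and a median of 0.12, with a range of 0.04 to 0.21 when single libraries were left out. WD-Exos against ND-Exos gave 12 of 13 lower and a median of -0.30. WD-Exos against BCAS gave 9 of 13 lower and a median of -0.22. That last value was -0.12 without BCAS replicate 2, -0.14 without WD-Exos replicate 2 and -0.05 without both. Those libraries had the highest summed level of immediate early and heat shock genes in their groups, 11176 and 16603 CPM, against 480.7 to 1710.1 CPM in Sham. By group these genes summed to 1149 ± 500 CPM in Sham, 3816 ± 4264 in BCAS, 2409 ± 489 in ND-Exos and 6501 ± 6069 in WD-Exos, and all 6 ND-Exos libraries (1718 to 3139 CPM) lay above every Sham library. WD-Exos replicate 2 was also the lowest of the 24 libraries for 8 of the 40 tested members, and BCAS replicate 2 for 0. Their complex IV sums, 1842 and 3253 CPM, were the lowest and the highest of their groups. BCAS replicate 4 was the lowest library for 6 members, with immediate early and heat shock genes at 1488 CPM. The part of the immediate early and heat shock state in the results was not tested.

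Cox6b1, the subunit on the face that receives cytochrome c, came closest to the threshold of all members. It ran from 307 to 466 CPM in Sham (median 439.8), 318 to 443 in BCAS (367), 298 to 403 in ND-Exos (327) and 213 to 357 in WD-Exos (282). Group means in that order were 413 ± 60, 369.5 ± 43.3, 337 ± 36 and 274 ± 54 CPM. Every pair of groups overlapped, WD-Exos and Sham included. The log2 fold change for WD-Exos against Sham was -0.59 (SE 0.14, edgeR adjusted p = 0.114). DESeq2 gave -0.56 with an adjusted p of 0.00273, and limma voom -0.64 with an adjusted p of 0.0194; over all alternatives the adjusted p ran from 0.00273 to 0.829. Against BCAS the value was -0.43 (SE 0.14, edgeR adjusted p = 0.816) and against ND-Exos -0.30 (SE 0.14, edgeR adjusted p = 0.905).

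Cox5a and Cox7c were the 2 of 40 members whose BCAS libraries all lay below all Sham libraries (0.245% of all genes tested, and 1.12% of those with a mean of at least 100 CPM). Cox5a, a subunit on the matrix side, ran from 90.8 to 133 CPM in Sham (median 118), 40.1 to 84.2 in BCAS (63.7), 64.4 to 111 in ND-Exos (77.6) and 46.5 to 135 in WD-Exos (52.6). Its log2 fold change was -0.82 for BCAS against Sham (SE 0.27, edgeR adjusted p = 0.376). With WD-Exos 5 libraries lay between 46.5 and 64.3 CPM and replicate 6 stood at 135, so the group overlapped with Sham through that library alone. For WD-Exos against Sham 0 of 40 members were fully apart and lower (0.744% of all genes tested, and 3.58% of those with a mean of at least 100 CPM). Cox7c, a small membrane subunit, ran from 144 to 222 CPM in Sham (median 179), 102 to 142 in BCAS (123), 104 to 194 in ND-Exos (149.7) and 99.8 to 167 in WD-Exos (121). Its log2 fold change was -0.56 for BCAS against Sham (SE 0.18, edgeR adjusted p = 0.380) and 0.30 for ND-Exos against BCAS (SE 0.18, edgeR adjusted p = 1).

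**Figure D4:**
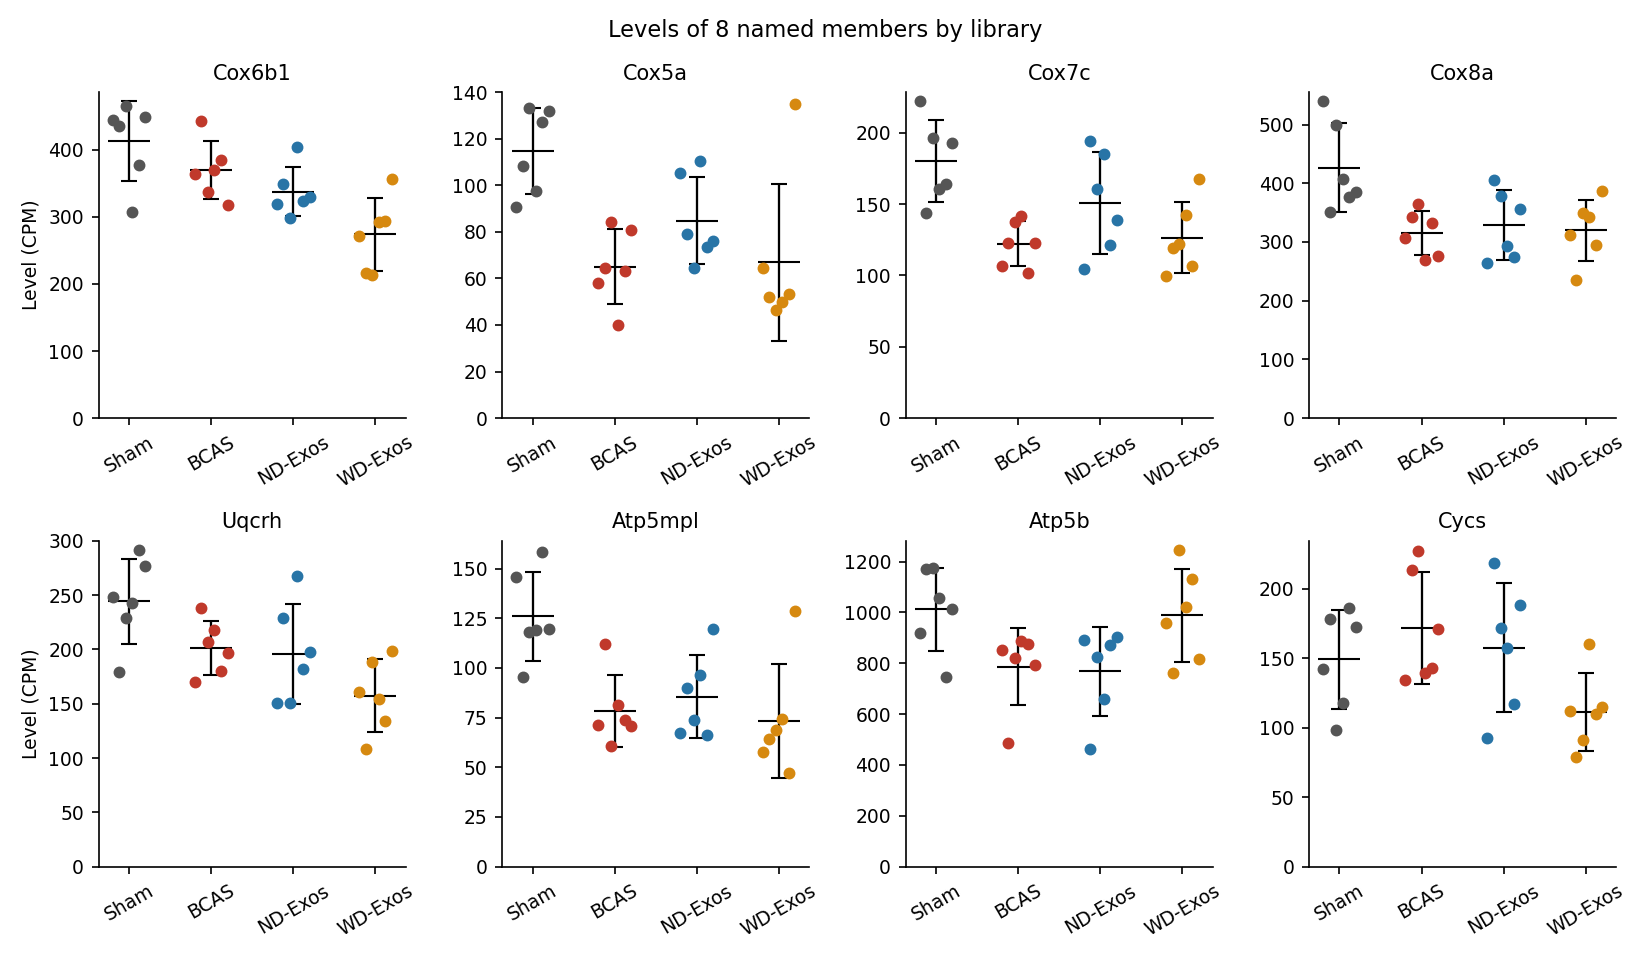
Level in CPM of 8 named members by library; points are libraries, lines the mean and bars 1 SD (n = 6), on axes that start at 0. For Cox5a and Cox7c all BCAS points lie below all Sham points (at most 84.2 against at least 90.8 CPM for Cox5a), while the mean of Atp5b is 989 CPM in WD-Exos and 1013 CPM in Sham.

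Other small subunits of complex IV were also highest in Sham. Cox8a stood at 427 ± 76 CPM in Sham, 315 ± 38 in BCAS, 329 ± 59 in ND-Exos and 319.6 ± 52.4 in WD-Exos. Its log2 fold change was -0.44 for BCAS against Sham (SE 0.15, edgeR adjusted p = 0.402), and Sham libraries (351 to 540.1 CPM) overlapped with BCAS libraries (269 to 365 CPM). Cox7a2, the common form of subunit VIIa, ran from 135 to 225 CPM in Sham and from 82.7 to 136 in WD-Exos, where only the ends of the ranges met (log2 fold change -0.57, SE 0.19, edgeR adjusted p = 0.396; -0.34 without Sham replicates 1, 2 and 3). Tmem30a, at 102 CPM, overlaps Cox7a2 in the annotation, so reads may be shared. Cox6c gave a log2 fold change of -0.70 (SE 0.24) and Cox7b -0.63 (SE 0.24) in the same comparison. Cox5b, a zinc-binding subunit on the matrix side, gave -0.43 (SE 0.28) for BCAS against Sham and -0.28 (SE 0.28) for WD-Exos against Sham.

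Cox4i1 stood at 648 ± 39 CPM in Sham, 641 ± 76 in BCAS, 662 ± 135 in ND-Exos and 548 ± 120 in WD-Exos, and its log2 fold change was -0.02 (SE 0.15) for BCAS against Sham and -0.24 (SE 0.15) for WD-Exos against Sham. Cox7a2l, which joins complexes III and IV into supercomplexes, ran from 539 to 703 CPM in Sham (median 639), 403 to 737 in BCAS (570.5), 537 to 835 in ND-Exos (613) and 354 to 668 in WD-Exos (479.8). For WD-Exos against ND-Exos its log2 fold change was -0.37 (SE 0.16, edgeR adjusted p = 0.780). Cox6a1 stood at 347 ± 37 CPM in Sham, 308 ± 45 in BCAS, 274 ± 75 in ND-Exos and 264 ± 59 in WD-Exos. Cox6a2, at a far lower level, was the 1 member of 40 whose ND-Exos libraries all lay below Sham (0.851% of all genes tested, and 4.5% of those with a mean of at least 100 CPM), at 0 to 6.32 CPM against 7.99 to 45.9 CPM. Its log2 fold change of -2.94 had an SE of 1.36 (edgeR adjusted p = 0.685), and its gene overlaps Itgad in the annotation.

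Complex V was lower than Sham in 13 of 17 members in BCAS (median log2 fold change -0.23), in 12 in ND-Exos (-0.32) and in 16 in WD-Exos (-0.26). ND-Exos against BCAS gave 9 of 17 lower and a median of -0.03, with a range of -0.05 to 0.03 when single libraries were left out and values above 0 without BCAS replicate 2 or BCAS replicate 5. WD-Exos against BCAS gave 13 of 17 lower and a median of -0.09, which was 0.03 without BCAS replicate 2 and WD-Exos replicate 2 and ran from -0.17 to -0.002 when single libraries were left out. WD-Exos against ND-Exos gave 9 of 17 lower and a median of -0.14, with a range of -0.21 to -0.07 when single libraries were left out.

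Among the F1 subunits, which form the catalytic head and its central stalk, Atp5b followed another order than most members. It ran from 746 to 1173 CPM in Sham (median 1035), 487 to 889 in BCAS (835), 461 to 902 in ND-Exos (849) and 761.5 to 1244 in WD-Exos (989.7). All BCAS and ND-Exos libraries lay below the Sham median, and the WD-Exos range covered that median. Fitted log2 fold changes of Atp5b were -0.37 for BCAS against Sham (SE 0.17, edgeR adjusted p = 0.754), 0.33 for WD-Exos against BCAS (SE 0.17, edgeR adjusted p = 0.9999) and 0.36 for WD-Exos against ND-Exos (SE 0.17, edgeR adjusted p = 0.881). BCAS replicate 2 held the lowest of the 6 BCAS values. The gamma subunit Atp5c1 stood at 315 ± 104 CPM in Sham, 357 ± 32 in BCAS, 379 ± 61 in ND-Exos and 301 ± 34 in WD-Exos, and so was highest in the groups where Atp5b was lowest.

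The smaller F1 subunits were lowest in ND-Exos. Atp5d, the delta subunit, ran from 116 to 169.6 CPM in Sham (median 159.5), 59.0 to 169.8 in BCAS (109), 61.5 to 125 in ND-Exos (100.0) and 99.0 to 180.2 in WD-Exos (119). Its log2 fold change for ND-Exos against Sham was -0.67 (SE 0.23, edgeR adjusted p = 0.326). Atp5e, the epsilon subunit, ran from 142 to 233 CPM in Sham, 113 to 159 in BCAS, 97.2 to 155 in ND-Exos and 73.7 to 168 in WD-Exos, and gave -0.65 for ND-Exos against Sham (SE 0.20, edgeR adjusted p = 0.302). For both genes ND-Exos and Sham overlapped. Atp5a1, the alpha subunit that pairs with beta, gave -0.32 (SE 0.15, edgeR adjusted p = 0.706) for ND-Exos against Sham, from 529 ± 45 and 423 ± 71 CPM.

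In the peripheral stalk, which holds the head still, 2 of 4 members were lower in BCAS than in Sham. Atp5j, coupling factor 6, ran from 190.1 to 287 CPM in Sham (median 250.1), 165 to 246 in BCAS (176), 146 to 221 in ND-Exos (196) and 134 to 218 in WD-Exos (165). The groups overlapped, with log2 fold changes against Sham of -0.38 (SE 0.17, edgeR adjusted p = 0.661) in BCAS and -0.50 (SE 0.17, edgeR adjusted p = 0.400) in WD-Exos. Gabpa, its overlapping neighbour, stood at 17.1 CPM. The b subunit Atp5pb was the 1 tested member with a higher level in WD-Exos than in Sham, by a log2 fold change of 0.07 (SE 0.19). The other stalk members, Atp5o and Atp5h, gave -0.07 (SE 0.29) and -0.14 (SE 0.23) there.

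The 5 small membrane subunits were lower than Sham in 5 of 5 members, both in BCAS and in WD-Exos. Atp5mpl, a proteolipid of the membrane part, differed most. It ran from 95.5 to 158 CPM in Sham (median 119), 60.5 to 112 in BCAS (72.5), 66.0 to 119.8 in ND-Exos (81.9) and 46.9 to 128 in WD-Exos (66.7). All groups overlapped with Sham, through BCAS replicate 2 (112 CPM) and WD-Exos replicate 6 (128 CPM) in those groups. Fitted log2 fold changes were -0.69 for BCAS (SE 0.24, edgeR adjusted p = 0.410) and -0.78 for WD-Exos (SE 0.24, edgeR adjusted p = 0.345), each against Sham. Over the 4 groups DESeq2 gave it an adjusted p of 0.0498. Atp5l, the g subunit, ran from 158 to 209 CPM in Sham, 103 to 208 in BCAS, 146 to 221 in ND-Exos and 121 to 211 in WD-Exos. For WD-Exos against Sham the remaining subunits Atp5j2, Atp5k and Atp5md gave -0.50 (SE 0.20), -0.55 (SE 0.39) and -0.39 (SE 0.26).

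Cycs, cytochrome c, followed another order than the complexes. It ran from 98.5 to 186 CPM in Sham (median 157), 134 to 227 in BCAS (157), 92.5 to 218 in ND-Exos (164) and 78.6 to 160.05 in WD-Exos (111). The BCAS mean was the highest at 171 ± 40 CPM and the WD-Exos mean the lowest at 111 ± 28, and 5 of 6 WD-Exos libraries lay below the lowest BCAS library. The log2 fold change was 0.20 for BCAS against Sham (SE 0.23; 0.09 without Sham replicate 3 and 0.10 without BCAS replicate 3), -0.63 for WD-Exos against BCAS (SE 0.23, edgeR adjusted p = 0.816) and -0.50 for WD-Exos against ND-Exos (SE 0.23, edgeR adjusted p = 0.848).

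Other genes of the pathway were read by list, and none passed the edgeR threshold in any comparison; calls by other tools were not counted for these lists. Assembly factors of complex IV, which insert copper and heme and build the enzyme, gave 14 of 23 tested members lower in BCAS than in Sham (median log2 fold change -0.20) and 13 of 23 lower in WD-Exos than in Sham (-0.29). Their level was low and uneven. Cox11, a copper chaperone, had no count in any BCAS library and at most 2.86 CPM in Sham and 8.30 CPM in WD-Exos. Assembly factors of complex III gave 2 of 5 lower in both comparisons. Complex II subunits gave 3 of 4 lower in both, with medians of -0.05 and -0.06, and complex I subunits 27 of 38 (-0.10) and 33 of 38 (-0.29).

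Among the assembly factors of complex V and its inhibitor, 3 of 7 were lower than Sham in BCAS and in WD-Exos. The inhibitor Atpif1, which blocks the ATP synthase when it would run backward and burn ATP, had its highest levels in Sham. It ran from 136 to 231 CPM in Sham (median 187), 122 to 167 in BCAS (147), 123 to 155 in ND-Exos (138) and 89.3 to 149 in WD-Exos (114). The groups overlapped, and its log2 fold change for WD-Exos against Sham was -0.67 (SE 0.17, edgeR adjusted p = 0.120). The carriers that exchange ADP, ATP and phosphate with the cytosol differed among themselves: the phosphate carrier Slc25a3 stood at 388 ± 71 CPM in Sham and 298 ± 88 in BCAS, and the ADP/ATP carrier Slc25a5 at 626 ± 45 and 782 ± 150.2. Of 9 transcriptional regulators of respiratory genes 7 were tested, and their log2 fold changes were poorly measured, with a median SE of 1.05. In BCAS 7 of 7 were lower than in Sham (median -0.33, and 50.1% of all genes tested were lower). In WD-Exos 4 of 7 were lower than in Sham (49.5% of all genes tested). Tfam, which maintains and transcribes mitochondrial DNA, stood at 19.7 ± 12.2 CPM in Sham, 16.6 ± 12.9 in BCAS, 13.7 ± 11.6 in ND-Exos and 33.0 ± 18.2 in WD-Exos, and its ranges overlapped (4.83 to 34.8 CPM in Sham and 7.32 to 57.5 in WD-Exos).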

How the data were processed

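RNA was measured in microglia sorted by flow cytometry, with cDNA amplified by Smart-seq2, per the labels' protocols. The authors deposited estimated counts per Entrez gene, not scaled between libraries; aligner, counter and build were not given in the sources used here. Of 22064 identifiers, 6186 were blank in every library and 22002 matched a RefSeq symbol (GRCm38.p6, names only). Of the members, 4 had values that were not whole in some libraries. Reads were amplified and carried no molecular identifiers, so counts overstate the number of independent molecules.

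The rounded counts went into edgeR 4.0.16 (R 4.3.3): filterByExpr (minimum 10 counts), TMM factors of 0.938 to 1.16, 1 robust quasi-likelihood fit of 24 libraries with 4 group means, Benjamini-Hochberg adjustment and a threshold of 0.05. Of the tested genes, 52% had a library with no count. Transcript lengths were medians over coding transcripts of GENCODE vM21. In simulated data for BCAS against Sham, with 200 genes above 100 CPM changed in up to 9891 genes, 47% of 2-fold and 96.5% of 4-fold changes were recovered, with 3.5 false calls on average over 2 simulations. Changes under 2-fold and changes in genes below 100 CPM were not simulated. These rates therefore do not give the recovery of the smaller differences described for the members.

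The members and lists were chosen with earlier results of these data known. Named were the 2 members per complex with the highest level per length, the 2 per complex with the smallest p in each comparison, Cycs, Cyc1, any member past the threshold, complex IV isoforms, the c subunit genes, and up to 2 genes per pathway list with the smallest p over the 4 groups. The other members, such as Uqcrc2, Cox6c and Atp5pb, fall outside this rule and were added after their values were seen. Alternatives were DESeq2 1.42.0, voom with library weights (limma 3.58.1), DESeq2-type size factors, no filter, a minimum of 50 counts, detected genes per library as a covariate, only the 2 groups compared, a replicate block and leaving out each library.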

Additional observations from a re-analysis of the deposited data

Results flagged for a closer look

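In 9 of the 116 groups of 6 libraries tested for a single outlying value among the named members, 1 library stood far from the other 5; chance gives about 1 in 20 groups. WD-Exos replicate 6 was high for Cox5a, the matrix-side subunit of complex IV, at 135 CPM against 46.5 to 64.3 CPM in the other 5, and for Atp5mpl, the ATP synthase proteolipid, at 128 CPM against 46.9 to 74.2 CPM. The same library had the highest complex IV sum of its group (3281 CPM) and oligodendrocyte markers at 5208 CPM. Sham replicate 4 and ND-Exos replicate 3 also had high oligodendrocyte markers, at 7569 and 4279 CPM. Their complex IV sums, 3118 and 2561 CPM, lay below their group medians of 3352 and 2928 CPM. The part of oligodendrocytes in these values was not tested.

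BCAS replicate 2 was low for the catalytic beta subunit Atp5b at 487 CPM (the others 794 to 889), high for the gamma subunit Atp5c1 at 420.03 CPM (333 to 353) and high for Atp5j at 246 CPM (165 to 191). In ND-Exos, replicate 3 was high for Atp5e at 155 CPM (97.2 to 108). In Sham, replicate 4 was high for the muscle isoform Cox6a2 at 45.9 CPM (7.99 to 20.9), replicate 5 for Atp5g1 at 200.7 CPM (142 to 160), and replicate 1 for Atp5g2 at 282 CPM (194 to 215).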

How the results depend on the processing

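The count of members past the threshold was 0 in every comparison under every alternative except these: for WD-Exos against Sham it was 1 with voom (Cox6b1) and 2 with DESeq2 (Cox6b1 and Uqcrh), and over the 4 groups it was 2 with DESeq2 (Cox6b1 and Atp5mpl). DESeq2 called 172 and voom 65 of all genes for WD-Exos against Sham. The smallest adjusted p of any member over the alternatives was 0.0742 for BCAS against Sham, 0.0755 for ND-Exos against Sham, 0.107 for WD-Exos against BCAS, 0.28 for WD-Exos against ND-Exos and 0.686 for ND-Exos against BCAS. The median log2 fold change of complex III for WD-Exos against Sham ran from -0.36 to -0.20 when single libraries were left out, the last with WD-Exos replicate 3 removed. The log2 fold change of Cycs, ND-Exos against Sham, was 0.08 and ran from -0.0353 (without ND-Exos replicate 2) to 0.19 when single libraries were left out; it was -0.00818 without Sham replicate 3 and -0.002998 without Sham replicates 1, 2 and 3; the cause was not tested. Leaving out the last 3, or BCAS replicate 2 with WD-Exos replicate 2, was chosen after seeing the data. The fit with only the 2 groups compared cannot test the 4 groups at once. No pairing by replicate number was seen: deviations of same-numbered libraries correlated at -0.001 on average over 36 pairs (-0.0613 to 0.0755). Other-numbered libraries gave 0.0002 over 180 pairs. Such a correlation can miss a pairing, because it runs over all tested genes and 52% of them had a library with no count. With the replicate block 0 members passed in each comparison.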
